A study of Mus musculus with 17 samples.

Results

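New RNA of 9 genes of the epidermal growth factor (EGF) family was followed in mouse embryonic stem cells. These are 5 ligand genes (Hbegf, Areg, Ereg, Tgfa and Btc), 3 receptor genes (Egfr, Erbb2 and Erbb3) and the receptor inhibitor Errfi1. They were taken by symbol from the 25899 symbols of the count table, and all 9 were found. A filter on low counts kept 6 of the 9 among 14907 genes tested, while Areg, Ereg and Btc fell below it and are given as counts.

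Ligands of the EGF family are made as membrane-bound precursors, which proteases cut to release the soluble growth factor. A bound ligand brings receptors together in pairs, and the paired receptors signal through RAS, RAF, MEK and ERK among other routes. Erbb2 has no known ligand of its own, and Erbb3 has a weak kinase and works through its partner. Errfi1, also known as Mig6, binds the kinase domain of Egfr and blocks it, and in many cell types ERK signalling raises Errfi1 and some ligand genes, so the family holds both positive and negative feedback.

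All cells derived from the E14tg2a line on a 129SV background, lacked both Erk1 and Erk2 and lived on a cDNA for FLAG-ERK2 Q103A. They also stably expressed cRAF-ErT2, a RAF kinase that 4-hydroxytamoxifen (4OHT) turns on. Every group had been moved 24 h earlier from serum, LIF and 2 µM Chir99021 into serum, LIF and the FGF receptor inhibitor PD173074 (250 nM). The 6 groups were DMSO (0 h, no 4OHT), 250 nM 4OHT for 2 h, a MEK inhibitor (MEKi, 1 µM), MEKi with 4OHT, PP1 (2 µM, given to inhibit ERK2 Q103A) and PP1 with 4OHT. How long an inhibitor was given without 4OHT is not clear from the labels. Newly made RNA was labelled with 5 mM ethynyl uridine for the last 15 minutes and captured, and how much unlabelled RNA came with it was not measured. Each group had 1 library from each of clones a, b and c (n = 3), except DMSO, which had clones b and c (n = 2), so p-values measure the spread between clones of 1 line.

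Library totals ran from 5239690 counts (PP1, clone a) to 11093390 (DMSO, clone b), and 3 counts corresponded to 0.247 to 0.766 CPM (counts scaled to library size, after TMM scaling). Libraries of the same group correlated at 0.976 to 0.991 across genes. A set of 14 high-count loci was picked by 2 rules: a mean of at least 1000 counts, and a share of counts correlated with that of Cdk8 over these libraries (r of at least 0.95). These loci took 9.38% to 42.0% of the counts of a library, with the highest share in PP1 clone a. Results with the PP1 group are therefore also given without that library where it matters. All 10 embryonic stem cell markers passed the filter and summed to 3077 to 4032 CPM in every library. The 10 fibroblast markers summed to 2.81 to 10.7 CPM. No marker of the lists for fibroblasts, primitive endoderm, trophoblast, epithelium or early epiblast and mesoderm was at 0 in all 17 libraries, and Krt5, Krt14, Lum and Mesp1 had a median of 0. As in any bulk sample, fewer cells making a transcript and less of it per cell cannot be told apart.

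Differences are log2 fold changes ± standard error from edgeR's quasi-likelihood test, and a gene is called, or said to rise or fall, at a Benjamini-Hochberg adjusted p under 0.05 over all genes tested. Levels are CPM as mean ± SD over libraries. The comparisons share groups, so their values are not independent of one another.

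With 4OHT and no inhibitor, 5 of the 6 tested genes were called against DMSO. All cells carried cRAF-ErT2, so effects of 4OHT apart from it were not tested. Hbegf, Erbb3, Errfi1 and Erbb2 rose and Egfr fell, while Tgfa did not pass the test. Much of the transcriptome moved too, since 25.7% of all genes tested rose and 26.3% fell in 4OHT against DMSO. With the MEK inhibitor present, 4OHT raised 1 of the 6 (Erbb2) and lowered none, against 7.65% and 7.03% of all genes. An edgeR fit with clone as a replicate block also called Hbegf lower there (log2 -0.34, adjusted p = 0.023). With PP1 present, 4OHT raised 2 (Hbegf and Errfi1) and lowered 1 (Egfr), against 18.4% and 12.8% of all genes.

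**Figure D1:**
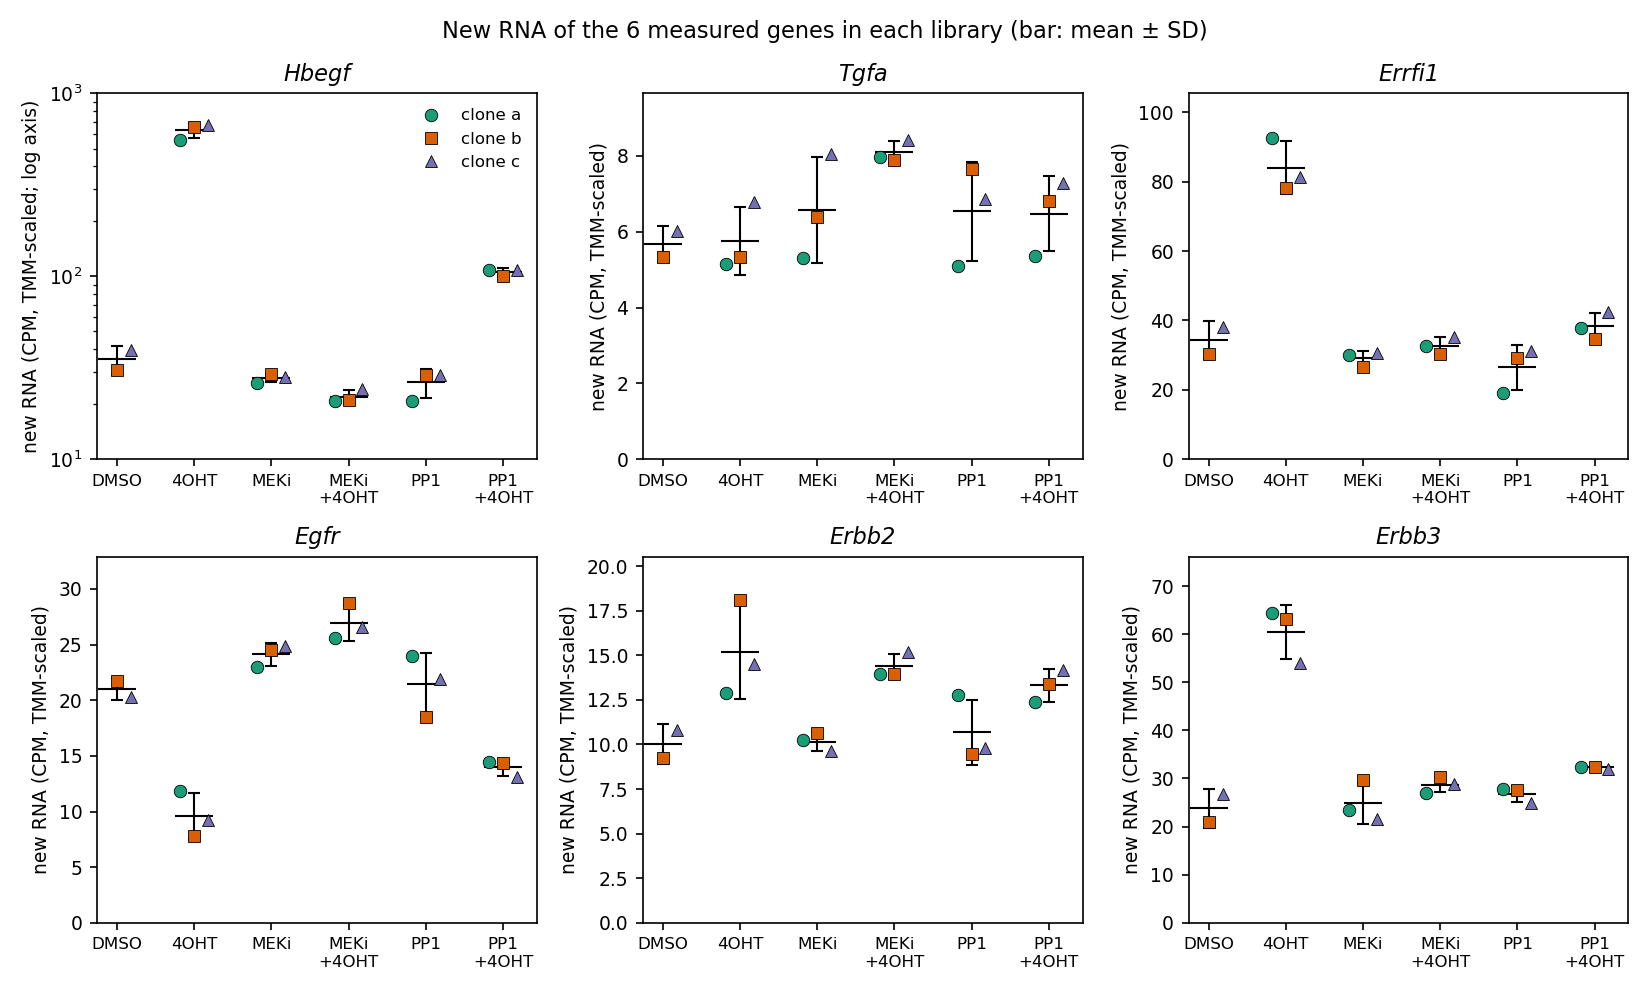
New RNA (CPM after TMM scaling, vertical axis; log axis for Hbegf, from 0 otherwise) of the 6 tested genes in each of the 17 libraries, by group. Points are libraries by clone, and bars the mean ± SD. Hbegf, Erbb3 and Errfi1 have their highest 3 libraries in 4OHT, and Egfr its lowest 3.

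Hbegf encodes heparin-binding EGF-like growth factor, a ligand of Egfr and Erbb4. The gene lies on chromosome 18 at 36504927 to 36515805 (mm10, minus strand, protein-coding, 10.9 kb), where no other annotated gene overlaps it. Its level in DMSO was 30.7 CPM in clone b and 39.6 in clone c. With 4OHT it was 559 in clone a, 652 in clone b and 671 in clone c, every library more than an order of magnitude above DMSO. The mean went from 35.2 ± 6.33 to 628 ± 59.9 CPM, a 17.9-fold rise (log2 4.16 ± 0.13, adjusted p = 2.3e-17), and both clones that the groups share were higher with 4OHT.

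No rise of Hbegf was seen in the presence of the MEK inhibitor. MEKi alone gave 26.2, 29.1 and 28.2 CPM in clones a, b and c, and MEKi with 4OHT gave 20.8, 21 and 24.2. The libraries with 4OHT were thus the lower ones in all 3 clones, without overlap. The difference was -0.34 ± 0.12 (adjusted p = 0.056), just outside the threshold, and with clone as a replicate block it was -0.34 (adjusted p = 0.023). Over all alternatives the adjusted p of this Hbegf difference ran from 0.023 to 0.62, the latter with library totals as the only scaling (log2 -0.17).

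With PP1 present Hbegf rose less. PP1 alone gave 20.9, 29.0 and 29.0 CPM, and PP1 with 4OHT gave 109, 99.9 and 108. All 3 clones were higher with 4OHT, 3.91-fold on average (log2 1.97 ± 0.11, adjusted p = 2.3e-11), and 1.85 ± 0.11 without clone a of PP1. The group with PP1 and 4OHT lay between the others: it was 5.94-fold below 4OHT (log2 -2.57 ± 0.10, adjusted p = 2.6e-15) and 4.8-fold above MEKi with 4OHT (log2 2.26 ± 0.11, adjusted p = 8.4e-14). MEKi with 4OHT was 28.5-fold below 4OHT (log2 -4.83 ± 0.11, adjusted p = 5.9e-20). The order of Hbegf levels was 4OHT, PP1 with 4OHT, DMSO, MEKi, PP1 and MEKi with 4OHT. The libraries of MEKi and PP1 overlapped, as did those of PP1 and MEKi with 4OHT.

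The other genes of the family moved far less than Hbegf with 4OHT, as the plot of fold changes shows. Among these 6 genes, Hbegf had the largest response without an inhibitor and with PP1.

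**Figure D2:**
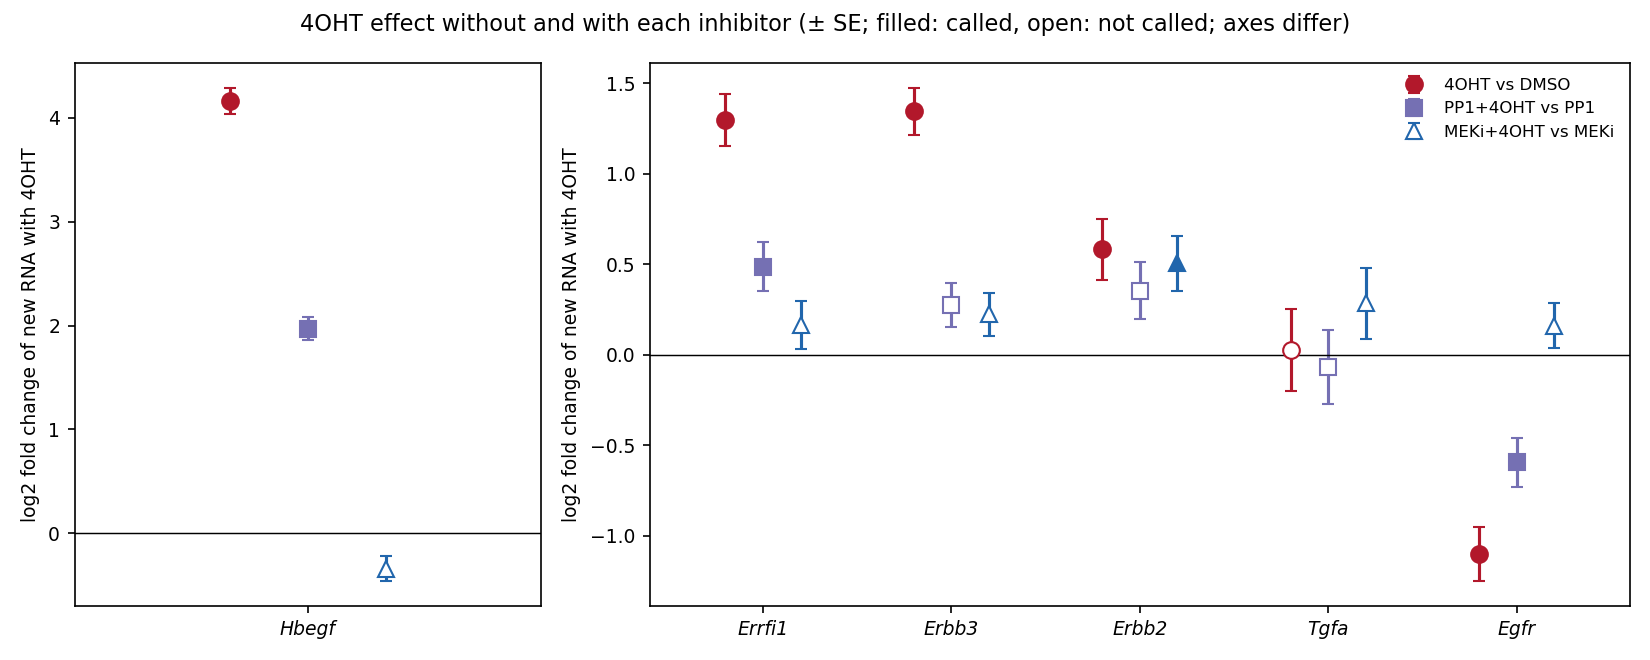
Log2 fold change of new RNA with 4OHT against the matching group without it (vertical axis, ± standard error), with no inhibitor (circles), PP1 (squares) and MEKi (triangles); filled symbols were called. Hbegf goes from 4.16 to 1.97 with PP1 and -0.34 with MEKi, and Egfr from -1.10 to -0.59 and 0.16.

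Tgfa encodes transforming growth factor alpha, a ligand of Egfr. It lies on chromosome 6 at 86195223 to 86275719 (mm10, plus strand), and the gene model Gm43917 on the other strand had 0 counts in all libraries. Its level was low and similar everywhere, from 5.10 to 8.43 CPM over the 17 libraries. DMSO had 5.35 and 6.02 CPM and 4OHT had 5.16, 5.34 and 6.80, with overlapping libraries (log2 0.03 ± 0.23, adjusted p = 0.93). MEKi with 4OHT had the highest level, 8.10 ± 0.29 CPM. Against 4OHT this was a rise of 0.49 ± 0.20 (adjusted p = 0.042), which DESeq2 put at adjusted p = 0.072. Over all alternatives the adjusted p of this Tgfa difference ran from 0.0077 to 0.15, and leaving out 4OHT clone a or b, or any clone of MEKi with 4OHT, ended the call. In no other comparison was Tgfa called.

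Areg, Ereg and Btc encode amphiregulin, epiregulin and betacellulin, 3 further ligands of Egfr. They lie near one another on chromosome 5 (mm10), Ereg at 91074622 to 91093646, Areg at 91139599 to 91148432 and Btc at 91357261 to 91402994, within 328 kb. Over all 17 libraries Areg had 36 counts, Ereg 29 and Btc 46. Areg was at 0 in 7 libraries, Ereg in 5 and Btc in 2, and the highest count in any library was 13, 6 and 6. Most of these values lie at or under the level of 3 counts.

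Areg had 2 and 2 counts in DMSO and 13, 4 and 3 in 4OHT (clones a, b and c). The other groups had 6, 0 and 0 with MEKi, 2, 1 and 0 with MEKi and 4OHT, 1, 0 and 0 with PP1, and 2, 0 and 0 with PP1 and 4OHT. The 3 libraries with 4OHT alone were thus above both DMSO libraries, but clone a held the highest Areg count in every group that has it. Relative to depth, 4OHT had 4.70 times the Areg counts of DMSO, with an exact 95% interval from 1.58 to 18.9 that covers counting error only. In an edgeR fit without the filter this Areg difference was not called (adjusted p = 0.13). In that fit Areg was called lower than in 4OHT with MEKi and 4OHT (adjusted p = 0.025; ratio of counts 0.119, interval 0.0227 to 0.401) and with PP1 and 4OHT (adjusted p = 0.022; ratio 0.0863, interval 0.00978 to 0.355).

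Ereg had 0 and 2 counts in DMSO, 5, 1 and 1 in 4OHT, 2, 1 and 6 in MEKi, 1, 5 and 0 in MEKi with 4OHT, 0, 0 and 1 in PP1, and 3, 1 and 0 in PP1 with 4OHT. Btc had 0 and 3 in DMSO, 2, 0 and 4 in 4OHT, 5, 3 and 5 in MEKi, 6, 3 and 5 in MEKi with 4OHT, 1, 2 and 3 in PP1, and 2, 1 and 1 in PP1 with 4OHT. Groups next to one another in mean level overlapped for both genes. For 4OHT against DMSO the edgeR fit without the filter gave adjusted p = 0.42 for Ereg and 0.64 for Btc, so a difference was not detectable at this depth. That fit called neither gene in any of the 12 comparisons, the lowest adjusted p being 0.27 (Btc, PP1 with 4OHT against MEKi with 4OHT).

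**Figure D3:**
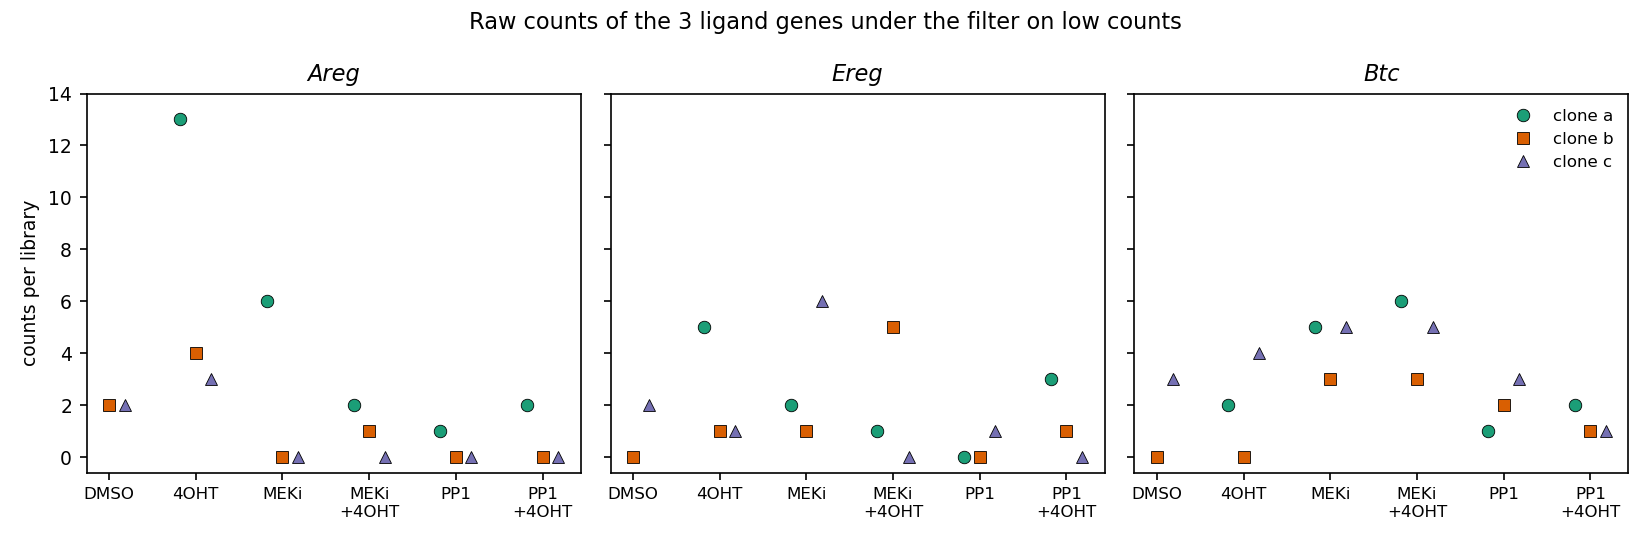
Raw counts per library (vertical axis) of Areg, Ereg and Btc by group, with points for clones a, b and c. Areg reaches 13 counts in 4OHT clone a, and no other count of the 3 genes is above 6.

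The RefSeq promoter table (GRCm38.p6) held entries for 6 of the 9 genes (Areg, Btc, Tgfa, Egfr, Erbb2 and Errfi1). The 250 bases before each start were searched on both strands for the ETS site CCGGAA, the AP-1 site TGANTCA, the EGR site GCGNGGGCG, the cyclic AMP response element (CRE) TGACGTCA and the CArG box, which are bound by families of factors that growth factor signalling is known to act on. A CRE was found before Areg and before the second of the 2 Errfi1 starts, and an ETS site on the reverse strand before Egfr. Of 32851 such windows in the table, 1.55% held a CRE, 12.0% an ETS site, 6.75% an AP-1 site, 4.70% an EGR site and 1.47% a CArG box. The windows of Btc, Tgfa, Erbb2 and the first Errfi1 start held none of these letters. The 2 Errfi1 starts lie at -123 and 1151 bases from the annotated gene start. The Errfi1 window with the CRE thus lies inside the annotated gene. The 3 windows with a match are printed 5′ to 3′ along the gene, with the match in capitals, so that its place beside the start can be seen. They are chr5:91139349-91139598 (plus strand) for Areg, chr4:150854820-150855069 (plus strand) for Errfi1 and chr11:16751953-16752202 (plus strand) for Egfr. The match begins 61 bases before the Areg start, 51 before the Errfi1 start and 119 before the Egfr start.
Areg: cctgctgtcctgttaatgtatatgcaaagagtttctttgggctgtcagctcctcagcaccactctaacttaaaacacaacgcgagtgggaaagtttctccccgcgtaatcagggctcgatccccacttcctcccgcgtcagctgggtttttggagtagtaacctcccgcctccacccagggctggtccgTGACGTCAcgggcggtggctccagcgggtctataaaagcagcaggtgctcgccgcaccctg
Errfi1: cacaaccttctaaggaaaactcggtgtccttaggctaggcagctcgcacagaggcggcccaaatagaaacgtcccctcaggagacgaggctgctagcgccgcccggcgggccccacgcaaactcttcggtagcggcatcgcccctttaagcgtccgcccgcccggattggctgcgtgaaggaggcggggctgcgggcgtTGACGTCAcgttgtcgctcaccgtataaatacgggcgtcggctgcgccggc
Egfr: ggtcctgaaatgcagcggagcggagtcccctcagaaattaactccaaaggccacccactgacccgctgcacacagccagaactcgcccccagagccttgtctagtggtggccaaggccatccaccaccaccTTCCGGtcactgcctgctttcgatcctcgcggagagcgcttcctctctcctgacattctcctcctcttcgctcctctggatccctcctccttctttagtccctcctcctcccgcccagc
A match describes the letters and is no measure of binding.

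Egfr, the receptor of all 5 ligands, went the other way from Hbegf. The gene spans chromosome 11 from 16752203 to 16918158 (mm10, plus strand, 166 kb). The antisense gene Egfros overlaps it by 15.3 kb and is not among the symbols counted here. Since the strand setting of the counting is not given, reads of the 2 strands cannot be told apart. Egfr had 21.7 and 20.3 CPM in DMSO (clones b and c) and 11.8, 7.76 and 9.26 with 4OHT (clones a, b and c). All 3 libraries with 4OHT were below both without, a 2.14-fold fall (log2 -1.10 ± 0.15, adjusted p = 1.5e-06).

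With MEKi, Egfr was at 23.0, 24.5 and 24.8 CPM, and with MEKi and 4OHT at 25.6, 28.7 and 26.6. Here 4OHT did not lower it, the libraries with 4OHT being the higher ones in all 3 clones (log2 0.16 ± 0.12, adjusted p = 0.43). With PP1 it was at 24.0, 18.5 and 21.9 CPM, and with PP1 and 4OHT at 14.5, 14.4 and 13.1. That was a fall of 0.59 ± 0.14 on the log2 scale in all 3 clones (adjusted p = 0.0019), which library totals as the only scaling put at -0.47 with adjusted p = 0.078. Egfr levels were lowest in 4OHT, then PP1 with 4OHT, then DMSO, PP1 and MEKi, with MEKi and 4OHT together highest. Libraries of DMSO and PP1 overlapped, as did those of PP1 and MEKi.

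Egfr in MEKi with 4OHT was 2.75-fold above 4OHT (log2 1.46 ± 0.14, adjusted p = 3.1e-09). In PP1 with 4OHT it was 1.43-fold above 4OHT (log2 0.52 ± 0.14, adjusted p = 0.0060) and 1.92-fold below MEKi with 4OHT (log2 -0.94 ± 0.13, adjusted p = 5.1e-06). The 8 markers of primitive endoderm, some of which embryonic stem cells also make, summed to 11.7 to 15.9 CPM in PP1 with 4OHT, below every library of PP1 (22.5 to 29.1) and of MEKi with 4OHT (21.6 to 30.7). In 4OHT, where Egfr was lowest, their sum ran from 12.6 to 22.4 CPM and overlapped DMSO (20.4 to 21.4). Their part in the Egfr values was not tested.

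Erbb3 encodes the neuregulin receptor whose partner is most often Erbb2. It lies on chromosome 10 at 128567523 to 128589652 (mm10, minus strand), with the microRNA gene Mir6917 inside it. It had 21 and 26.7 CPM in DMSO and 64.4, 63.1 and 54.0 in 4OHT, a 2.54-fold rise without overlap (log2 1.35 ± 0.13, adjusted p = 7.2e-09). MEKi gave 23.3, 29.6 and 21.5 CPM and MEKi with 4OHT 27.1, 30.2 and 28.8, overlapping groups that did not pass the test (log2 0.22 ± 0.12, adjusted p = 0.23). PP1 gave 27.8, 27.6 and 24.9 CPM and PP1 with 4OHT 32.4, 32.5 and 32. These did not overlap, and all 3 clones were higher with 4OHT, yet the difference of 0.28 ± 0.12 missed the threshold (adjusted p = 0.085). Erbb3 was 2.11-fold lower in MEKi with 4OHT than in 4OHT (log2 -1.07 ± 0.11, adjusted p = 2.0e-08) and 1.87-fold lower in PP1 with 4OHT (log2 -0.90 ± 0.11, adjusted p = 6.6e-07). Between those inhibitor groups it was not called different (log2 0.17 ± 0.12, adjusted p = 0.30).

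Erbb2 encodes the receptor that pairs with the other members and binds no ligand itself. It lies on chromosome 11 at 98412470 to 98437716 (mm10, plus strand) and shares 0.009 kb with Mien1 on the other strand, which was not called different between 4OHT and DMSO (log2 -0.12, adjusted p = 0.76). Erbb2 had 9.21 and 10.8 CPM in DMSO and 12.9, 18.1 and 14.5 in 4OHT, a 1.5-fold rise without overlap (log2 0.58 ± 0.17, adjusted p = 0.0054). The call was lost without DMSO clone b (log2 0.50, adjusted p = 0.072) and with library totals as the only scaling (log2 0.28, adjusted p = 0.21).

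Erbb2 was the 1 gene of the 6 that 4OHT raised beside the MEK inhibitor. MEKi gave 10.2, 10.6 and 9.61 CPM, and MEKi with 4OHT gave 14, 14 and 15.2, without overlap (log2 0.51 ± 0.15, adjusted p = 0.027). Leaving out MEKi clone a or c, or any clone of MEKi with 4OHT, moved the adjusted p of this Erbb2 difference to between 0.064 and 0.12, while its size stayed between 0.44 and 0.52. PP1 gave 12.8, 9.46 and 9.80 CPM and PP1 with 4OHT 12.4, 13.4 and 14.2. Those groups overlapped through PP1 clone a (log2 0.35 ± 0.16, adjusted p = 0.091). Without that library Erbb2 was called higher (log2 0.44 ± 0.16, adjusted p = 0.042). No Erbb2 difference among the 3 groups with 4OHT was called, with values from -0.18 to -0.06.

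Errfi1 spans chromosome 4 from 150853919 to 150868892 (mm10, plus strand). The antisense gene 1700045H11Rik overlaps it by 1.03 kb and is not among the symbols counted here. Errfi1 had 30.4 and 38.2 CPM in DMSO and 92.7, 78.1 and 81.2 in 4OHT. The libraries were far apart, a 2.46-fold rise (log2 1.30 ± 0.14, adjusted p = 4.8e-08). MEKi gave 29.9, 26.5 and 30.8 CPM and MEKi with 4OHT 32.7, 30.3 and 35.3, with overlap (log2 0.17 ± 0.13, adjusted p = 0.44). PP1 gave 19.1, 29.3 and 31.1 CPM, of which clone a was the lowest value of the gene in any library, and PP1 with 4OHT gave 37.9, 34.8 and 42.5. That was a rise of 0.49 ± 0.13 in all 3 clones (adjusted p = 0.0079), to levels that overlapped those of DMSO. Without PP1 clone a the rise of Errfi1 was 0.32 ± 0.12 (adjusted p = 0.043), and with library totals as the only scaling its adjusted p was 0.056. Errfi1 was 2.57-fold lower in MEKi with 4OHT than in 4OHT (log2 -1.36 ± 0.12, adjusted p = 2.1e-09) and 2.20-fold lower in PP1 with 4OHT (log2 -1.14 ± 0.12, adjusted p = 9.2e-08).

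The inhibitors by themselves changed none of the 6 genes by edgeR. MEKi against DMSO called 0 of 6, with 0.0805% of all genes higher and 0.449% lower, and PP1 against DMSO also called 0 of 6, with 0.0805% and 0.161%. At an unadjusted p under 0.05 there was 1 gene with MEKi (Hbegf) and 2 with PP1 (Hbegf and Errfi1). Hbegf was lower by 0.33 ± 0.12 with MEKi (log2 -0.33, adjusted p = 0.29) and by 0.38 ± 0.13 with PP1 (log2 -0.38, adjusted p = 0.25), and in both cases all inhibitor libraries were below both DMSO libraries. Errfi1 was at -0.33 ± 0.15 with PP1 (edgeR adjusted p = 0.43). Without PP1 clone a, the PP1 values were -0.26 ± 0.12 for Hbegf and -0.17 ± 0.13 for Errfi1 (edgeR adjusted p = 0.59 and 0.82). PP1 against MEKi called 0 of 6, with none at an unadjusted p under 0.05, against 0.0738% of all genes higher and 0% lower. DESeq2 and limma-voom also called 0 in these 3 comparisons.

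Against 4OHT alone, MEKi with 4OHT lowered 3 of the 6 genes (Hbegf, Errfi1 and Erbb3) and raised 2 (Egfr and Tgfa), where 28.4% of all genes were lower and 28.4% higher. PP1 with 4OHT lowered 3 (Hbegf, Errfi1 and Erbb3) and raised 1 (Egfr), where 20.5% of all genes were lower and 21.4% higher. PP1 with 4OHT against MEKi with 4OHT raised 1 (Hbegf) and lowered 1 (Egfr), where 15.2% were higher and 13% lower.

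The 4OHT effects with and without an inhibitor were also set against each other directly. With MEKi the effect differed from that without in 4 of the 6 genes (Hbegf, Egfr, Erbb3 and Errfi1), as in 40.4% of all genes. With PP1 it differed in 3 (Hbegf, Erbb3 and Errfi1), as in 26.5% of all genes. For Egfr the PP1 difference of 0.51 ± 0.20 was not called (adjusted p = 0.070), though it was without PP1 clone a (0.57, adjusted p = 0.045), without 4OHT clone a (0.63, adjusted p = 0.029) and with library totals only (0.92, adjusted p = 0.016). Between the 2 inhibitors the 4OHT effect differed for Hbegf (2.31 ± 0.16, adjusted p = 3.6e-10) and Egfr (-0.75 ± 0.18, adjusted p = 0.0073), as for 12.3% of all genes. For Errfi1, which was called with PP1 and not with MEKi, the difference between the inhibitors was not called (0.32 ± 0.19, adjusted p = 0.32). No interaction of Erbb2 or Tgfa was called.

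Levels of different genes were compared per kb of gene span and per kb of exons. Capture after a short label also takes intronic RNA, but whether introns were counted is not given, so neither measure can be preferred. In DMSO Hbegf had 3.23 CPM per kb, Errfi1 2.29, Erbb3 1.08, Erbb2 0.397, Egfr 0.127 and Tgfa 0.0706. Areg, Ereg and Btc lay at 0.0198, 0.00487 and 0.00304. Per kb of exons Errfi1 (9.57) came before Hbegf (7.27), and Erbb3 (3.96), Erbb2 (1.92), Egfr (1.85) and Tgfa (0.876) followed in the same order. Areg then had 0.144, and Btc (0.0307) came before Ereg (0.0224). With 4OHT Hbegf reached 57.7 CPM per kb of span, Errfi1 5.61 and Erbb3 2.73, while Egfr was at 0.0579, below Tgfa at 0.0717.

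Other genes of the pathway were taken from a list of 46, of which 44 were tested (Epgn with 32 counts and Timp3 with 0 were under the filter). The list was made with earlier results of these data known, so its counts are a description and no test of the pathway. Cd44 of this list is also 1 of the 14 high-count loci. In 4OHT against DMSO 19 rose and 8 fell, against 25.7% and 26.3% of all genes, with a median of 0.25 against -0.02 over all genes. With library totals as the only scaling, which moved the median of all genes to -0.32, 7 rose and 10 fell and the list's median was -0.04, so the balance of directions depends on the scaling. With MEKi 6 rose and 6 fell with 4OHT (median 0.05, all genes 0.00), against 7.65% and 7.03% of all genes, and with library totals 4 rose and 1 fell. With PP1 13 rose and 6 fell (median 0.09, all genes 0.00), against 18.4% and 12.8% of all genes, and with library totals 9 rose and 1 fell.

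Among the regulators that rose with 4OHT, Socs5, an adaptor that promotes degradation of Egfr, went from 20.1 ± 0.568 to 194 ± 13.4 CPM (log2 3.28 ± 0.12, adjusted p = 4.2e-16). Ptpn1, a phosphatase that acts on receptor tyrosine kinases, rose by 1.83 ± 0.10. Among the genes of ligand release, Rhbdf1, which helps the sheddase Adam17 to mature, went from 8.26 ± 1.34 to 66.7 ± 8.87 CPM (log2 3.0 ± 0.18, adjusted p = 3.2e-12). Cd9, a tetraspanin that binds the Hbegf precursor, rose by 0.87 ± 0.08. Of the genes that fell, Lrig1 and Lrig3 encode transmembrane proteins, of which Lrig1 promotes loss of receptors from the cell. Lrig3 went from 155 ± 13.4 to 42.9 ± 3.34 CPM (log2 -1.86 ± 0.10) and Lrig1 from 66.7 ± 0.768 to 27.3 ± 2.53 (log2 -1.30 ± 0.13). The ubiquitin ligase gene Cblc (log2 -1.93 ± 0.29) and the rhomboid protease gene Rhbdl2 (log2 -1.33 ± 0.24) fell too. These 8 differences between 4OHT and DMSO kept their direction and call with library totals as the only scaling.

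With PP1, 4OHT still raised Rhbdf1 (log2 1.49 ± 0.17), Socs5 (1.06 ± 0.12), Ptpn1 (1.00 ± 0.09) and Rnf41 (0.56 ± 0.08), the last a ubiquitin ligase that acts on Erbb3. It lowered Lrig3 (-0.76 ± 0.09), Lrig1 (-0.37 ± 0.11), Rhbdl2 (-0.71 ± 0.22) and the docking protein gene Gab2 (-0.87 ± 0.27). Scaled by library totals alone, the 4 rises and the fall of Lrig3 kept their calls, while Lrig1 (-0.25, adjusted p = 0.37), Rhbdl2 (-0.60, adjusted p = 0.12) and Gab2 (-0.75, adjusted p = 0.086) lost theirs.

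With MEKi, 4OHT raised Rhbdf2, a relative of Rhbdf1 (log2 0.66 ± 0.11), Socs5 (0.57 ± 0.12), Ptpn1 (0.53 ± 0.09) and Cd9 (0.44 ± 0.07), all of which kept their calls with library totals. The effects on Socs5 and Ptpn1 were smaller than without an inhibitor, by an interaction of -2.70 ± 0.17 and -1.31 ± 0.13 (edgeR adjusted p = 1.0e-11 and 2.3e-08). Rhbdf2 was at 0.66 with PP1 too, and was not called without an inhibitor (0.21, adjusted p = 0.16). Cd9 was at 0.02 with PP1 (adjusted p = 0.87).

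Of the 4 neuregulin genes, which encode ligands of Erbb4 and only in some cases of Erbb3, 3 fell with 4OHT beside MEKi. Nrg1 fell by 1.06 ± 0.22, Nrg2 by 0.63 ± 0.17 and Nrg4 by 0.59 ± 0.16 on the log2 scale, while Nrg3 was at -0.56 and did not pass the test (adjusted p = 0.32). Erbin, whose protein binds Erbb2, fell by 0.31 ± 0.08. With library totals Nrg1 alone of these kept its call (-0.90, adjusted p = 0.026), and the adjusted p was 0.21 for Nrg2, 0.18 for Nrg4 and 0.64 for Erbin. Without an inhibitor 4OHT raised Nrg1 (1.09, adjusted p = 0.00093) and lowered Nrg4 (-0.60, adjusted p = 0.0055). Cd9 was also called higher with MEKi alone (log2 0.39 ± 0.08, adjusted p = 0.018) and with PP1 alone (log2 0.37 ± 0.08, adjusted p = 0.047).

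**Figure D4:**
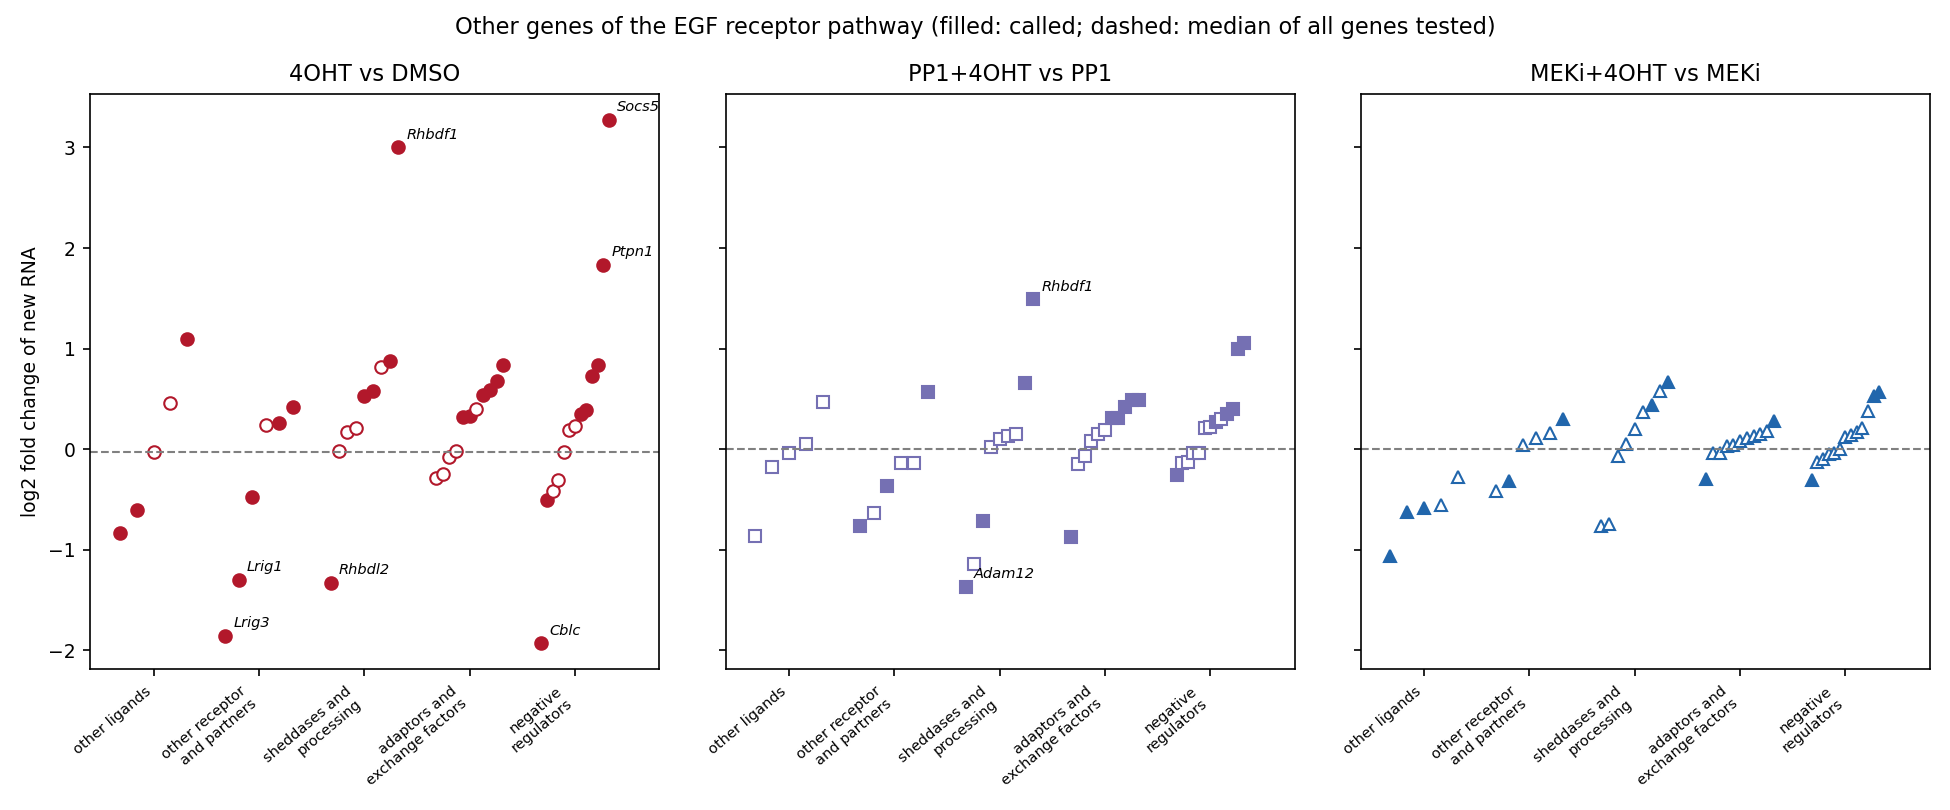
Log2 fold change of new RNA with 4OHT (vertical axis) for 44 other pathway genes by role, with no inhibitor, PP1 and MEKi from left to right; filled symbols were called and the dashed line is the median of all genes. Socs5 and Rhbdf1 are at 3.28 and 3.0 without an inhibitor, and the highest value is 1.49 (Rhbdf1) with PP1 and 0.66 (Rhbdf2) with MEKi.

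Genes whose new RNA followed each member most closely were sought by Pearson's r over the 17 libraries, among 9484 genes of sufficient level. For Hbegf these were Dusp5 (0.994), a phosphatase that acts on ERK, Pomp (0.993) and Fis1 (0.991). For Errfi1 they were Rsrc2, Tra2a and Ccnt1 (0.977 to 0.978), and for Erbb3 Smtn (0.974), Sfxn3 (0.973) and Pop5 (0.970). For Egfr they were Atp2b2 (0.963), Mok (0.962) and Zbtb7c (0.958), for Erbb2 Ckap2l (0.95), Ankrd13a (0.939) and Dhx37 (0.932), and for Tgfa Dirc2 (0.824), Thap4 (0.818) and Slc16a9 (0.800). By Spearman's rho other genes came first for all but Tgfa. The libraries share 6 treatments, so such values describe the response to them, and no test was made.

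The sums of other marker lists also moved with 4OHT. The 8 epithelial and keratinocyte markers, of which Cdh1 and Epcam are also made by embryonic stem cells, summed to 563 to 658 CPM in 4OHT against 303 to 408 in the other groups. The 7 early epiblast and mesoderm markers summed to 26.1 to 32.2 CPM in 4OHT against 4.51 to 13.7, and the 8 trophoblast markers to 16.9 to 19.6 in PP1 with 4OHT against 31.6 to 53.4. Single genes can carry such sums. Over the 17 libraries Pou3f1 of the epiblast list ran from 0.379 to 23.0 CPM, while Eomes, the next highest there, reached 6.90. Tfap2c of the trophoblast list ran from 6.80 to 40.5 CPM, and of the epithelial list Epcam from 14.4 to 168 and Cdh1 from 219 to 421. Hbegf, Erbb3 and Errfi1 were highest in the same 4OHT libraries, and the part of other cell types in these values was not tested.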

How the data were processed

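The deposited values are raw, unscaled counts, 1 for each symbol and library. STAR, featureCounts and the mm10 build were used by the authors, per the submitters' processing notes. Versions, annotation, feature type and strand setting were not given in the sources used here. Members, pathway genes and markers were all chosen with earlier results of these data known. Pathway genes were named as up to 4 called genes of smallest adjusted p per direction (in the comparisons of 4OHT with its matching group and of an inhibitor with DMSO; Nrg3 was added after its values were seen), and like genes as the 3 of highest correlation at an average log2 CPM of 3 or more, leaving out predicted symbols.

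Tests were run with edgeR 4.0.16 under R 4.3.3 (TMM, filterByExpr, robust quasi-likelihood fit of all 17 libraries, 1 term per group, 11 residual degrees of freedom). The fit was also run on simulated counts with 200 changed genes. In 4OHT against DMSO 7752 genes were called, so that run cannot check the scaling where many genes change. There were 12 comparisons, 3 of them interactions, each adjusted over its 14907 genes. Standard errors are the log2 fold change over the square root of F, which is approximate. Library totals ran from 5239690 to 11093390. Intervals and the level of 3 counts cover counting error only. Coordinates come from GENCODE release M21 and promoter windows from RefSeq.

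Alternatives were DESeq2 size factors, library totals, other filters, DESeq2 1.42.0, limma-voom (limma 3.58.1), the clone as a replicate block, only the groups compared, no high-count loci and each library left out. Clone letters pair libraries, since they name the same cells. After subtraction of group means, pairs of the same clone had a mean correlation of 0.086 (40 pairs, 16 above 0.1) and pairs of different clones -0.043 (80 pairs, 8 above 0.1).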

Additional observations from a re-analysis of the deposited data

Results flagged for a closer look

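The 4OHT effect on 4 genes differed between conditions by an edgeR interaction test, which is what marked them here. Under MEKi minus without an inhibitor, the log2 differences were -4.50 for Hbegf, 1.26 for Egfr, -1.12 for Erbb3 and -1.13 for Errfi1 (adjusted p = 4.1e-15, 1.5e-05, 1.8e-05 and 4.9e-05). Under PP1 minus without, they were -2.19 for Hbegf, -1.07 for Erbb3 and -0.81 for Errfi1 (adjusted p = 1.1e-09, 7.6e-05 and 0.0031). Under PP1 minus under MEKi, they were 2.31 for Hbegf and -0.75 for Egfr (adjusted p = 3.6e-10 and 0.0073). The same groups enter several of these tests. Groups of 2 or 3 libraries are too small for a check of single outlying libraries.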

How the results depend on the processing

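The 6 tested genes and 12 comparisons gave 1158 values under the alternatives. Of these, 1125 kept their side of the threshold, 20 called values lost their call and 13 gained one. No value called in either fit changed sign. Some values that were not called did, such as Tgfa in 4OHT against DMSO (log2 0.03, and -0.26 with library totals). Of the calls that changed, 6 were lost and 2 gained with library totals as the only scaling, which moved the median of all genes by up to 0.46 on the log2 scale (the interaction of MEKi); limma-voom changed none.

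The number of genes called for MEKi with 4OHT against MEKi went from 1 to 2 (Hbegf joining Erbb2) with DESeq2 size factors, no filter, a filter of 10 counts in each library of a group, DESeq2, the replicate block, only the groups compared and no high-count loci, and ran from 0 to 1 with each library left out. Without clone c of MEKi with 4OHT the 1 gene was Hbegf, called lower (log2 -0.42, edgeR adjusted p = 0.036). Erbb2 was not called in that fit (adjusted p = 0.11). For the interaction of PP1 and MEKi the number called went from 2 to 1 with library totals (Egfr lost, adjusted p = 0.092), and the 2 calls of Errfi1 against no inhibitor were lost there too (adjusted p = 0.096 with MEKi and 0.34 with PP1). The replicate block changed no other call of these genes, and raised the pathway genes called in MEKi against DMSO from 1 to 2. The cause of these changes was not tested.

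Counts over all genes moved by more than 1.5 times with library totals: 2188 to 1130 for MEKi with 4OHT against MEKi, 4661 to 2668 for PP1 with 4OHT against PP1, 4199 to 2153 for PP1 with 4OHT against MEKi with 4OHT, and 1829 to 514 for the interaction of PP1 and MEKi. The share of calls that were higher went from 49.4% to 21.1% for 4OHT against DMSO, from 52.1% to 82.9% with MEKi and from 59.0% to 76.6% with PP1. For MEKi against DMSO the count was 79, and 20 with library totals, 127 with DESeq2, 120 with the replicate block, 23 with only the groups compared and 19 to 52 with a library left out. For PP1 against DMSO it was 36, and 14 with library totals, 88 with DESeq2, 6 with only the groups compared, 23 without high-count loci, and 4, 3, 14 and 9 without DMSO clone b, DMSO clone c, PP1 clone a and PP1 clone b. For PP1 against MEKi it was 11, and 3, 20 and 3 under the first 3 of these, 6 without MEKi clone c or PP1 clone b and 7 without PP1 clone c. Leaving out MEKi clone a or MEKi with 4OHT clone c gave 1380 and 1437 for MEKi with 4OHT against MEKi. Depth limits Areg, Ereg and Btc, and DMSO rests on 2 libraries.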
